A study of Mus musculus with 30 samples.

Results

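The aminoacyl-tRNA synthetases are the enzymes that load each amino acid onto its tRNA before protein synthesis. They were selected by gene symbol alone, as protein-coding genes named after an amino acid letter followed by ars, with *Eprs*, *Farsa* and *Farsb* added. This gave 37 of the 56941 genes in the count tables. Symbols ending in 2 name the mitochondrial enzymes, and the others name the cytosolic enzymes, which gave 17 mitochondrial and 20 cytosolic genes. All 37 had enough reads to be tested after 6 h and in the fit over both times. At 24 h, 36 were tested, and *Nars2* was left out for low counts.

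The cells were mHypoA-2/12, an immortalized line of adult mouse hypothalamic neurons, kept in DMEM with GlutaMAX. They received vehicle (0.1% DMSO) or cannabidiol (CBD, the non-psychoactive cannabinoid of hemp) at 0.325, 0.75, 1.5 or 3 µM, for 6 h or for 24 h. Each of the 10 groups had 3 libraries of 3′ mRNA-Seq, named A1 to A30 by the authors. Nothing in the labels says that the 3 libraries came from separate cultures, so the p-values measure the spread between these libraries, which may be technical. The line is a single immortalized line, and the labels name no batch.

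A synthetase couples an amino acid to its tRNA at the cost of ATP. Cytosolic enzymes serve ribosomes outside the mitochondria, and several of them sit in a large multi-synthetase complex held together by scaffold proteins. The mitochondrial enzymes are also encoded in the nucleus, are imported, and serve the translation of the few proteins of the mitochondrial genome. *Gars* and *Kars* make both forms from a single gene and were kept with the cytosolic enzymes. *Farsa* and *Farsb* encode the alpha and beta subunits of the cytosolic phenylalanine enzyme, and *Eprs* encodes a fused enzyme for glutamate and proline. Many cytosolic synthetase genes are known targets of ATF4, the transcription factor of the amino acid response.

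Promoters of 27 of the 37 genes were found in RefSeq (GRCm38.p6), 13 cytosolic and 14 mitochondrial. The 250 bases before the start were searched on both strands for TGATGNAA, the core of the C/EBP-ATF response element that ATF4 binds. It was present in 3 of the 13 cytosolic promoters, those of *Aars*, *Gars* and *Tars*, and in 0 of the 14 mitochondrial ones. Among all 27025 genes with a promoter it was present in 3.91%. The E-box CACGTG was present in 3 cytosolic promoters (*Aars*, *Farsb* and *Iars*), in 0 mitochondrial ones and in 6.86% of all genes. In *Aars*, the 1 promoter with both motifs, they did not overlap, and a match describes letters in the window, not a bound site. The windows of the first motif are shown because these genes appear in the comparisons that follow. Capitals mark the motif, which lies on the opposite strand in all 3 genes.
Aars (chr8:111033695-111033772, plus strand): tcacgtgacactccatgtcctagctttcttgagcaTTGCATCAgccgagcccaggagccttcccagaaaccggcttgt
Gars (chr6:55037936-55038000, plus strand): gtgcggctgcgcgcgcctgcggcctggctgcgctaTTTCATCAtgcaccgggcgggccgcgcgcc
Tars (chr15:11399659-11399708, minus strand): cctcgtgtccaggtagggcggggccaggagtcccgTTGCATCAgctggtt
The motif began 112 bases before the start in *Aars*, 30 bases in *Gars* and 15 bases in *Tars*. The *Aars* window also holds its E-box, in lower case near the left end.

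Reads on genes ranged from 1839621 to 4420675 per library (median 2641725). Of these, 6285 to 13801 reads fell on the synthetases, or 0.272% to 0.427% of the library. The cytosolic enzymes received 5867 to 13059 reads per library and the mitochondrial enzymes 373 to 961, so the latter were measured with less precision. The median standard error of a log2 fold change of 24 h against 6 h in vehicle was 0.145 for cytosolic and 0.357 for mitochondrial genes. Among 11 neuronal markers, 7 had a median above 1 CPM, and the summed level of all 11 was 150 to 228 CPM. The others were at or near 0, with medians of 0.13 CPM for *Rbfox3* and 0 for *Elavl4* and the synaptic genes *Snap25* and *Syp*. Of 9 hypothalamic neuropeptide genes only *Gnrh1* had a median above 1 CPM, and *Cartpt* and *Trh* had no reads. The sum of 7 mesenchymal markers was 6355 to 8340 CPM, and that of 8 glial markers was 10.6 to 34.7 CPM, with 2 of the 8, *Aqp4* and *Sox10*, without reads. In such bulk samples, fewer cells with a transcript and less transcript per cell cannot be told apart.

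All 20 cytosolic genes had a higher mean level than all 17 mitochondrial genes. Levels are in CPM (read counts scaled to library size, with TMM factors), and since 3′ sequencing gives about 1 fragment per transcript they were not divided by gene length. Over the 30 libraries, cytosolic means ran from 38.7 CPM for *Iars* to 440 CPM for *Farsa*, with a median gene at 149 CPM. Mitochondrial means ran from 2.46 CPM for *Nars2* to 29.7 CPM for *Iars2*, with a median gene at 9.41 CPM. *Farsa* was followed by *Nars* (318 CPM), *Eprs* (290 CPM) and *Gars* (251 CPM). The isoleucine enzymes met at the border of the classes, and their ranges overlapped, at 21.9 to 63.0 CPM for *Iars* and 18.99 to 45.2 CPM for *Iars2*. The last 500 bases of *Aars* overlap *Exosc6* on the same strand, and those of 8 other members overlap a gene on the opposite strand, among them *Mars* with *Ddit3*. Whether counting used strand was not given in the sources used here, so the levels of these genes carry that uncertainty.

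**Figure D1:**
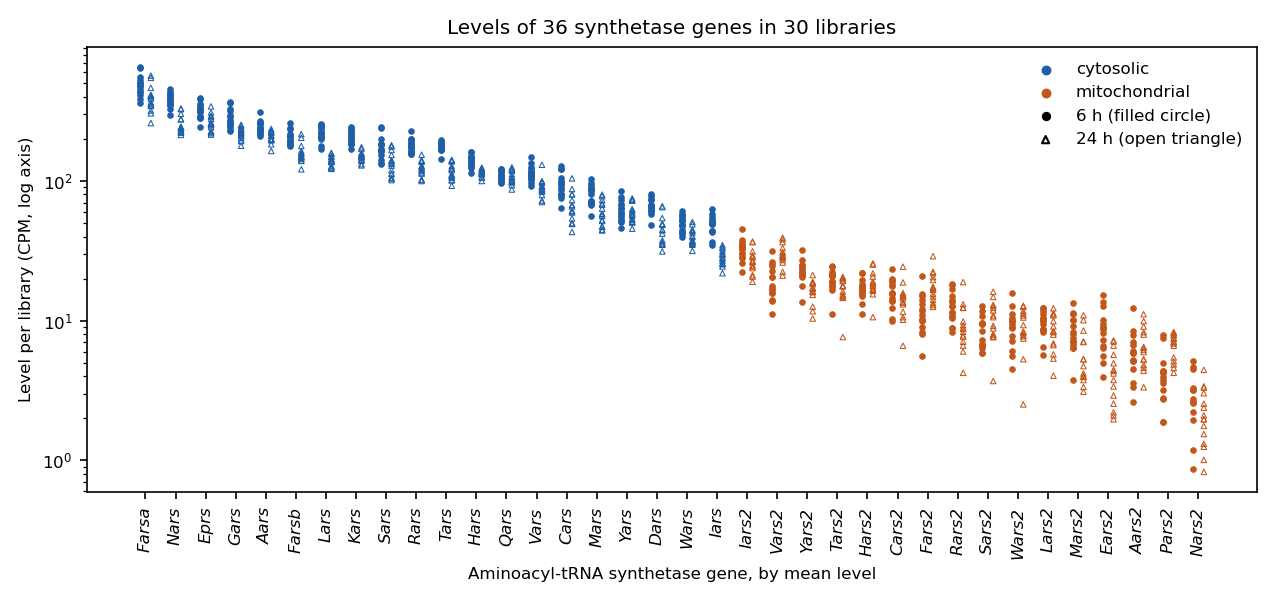
Level of 36 synthetase genes in each library, in CPM on a log axis, ordered by mean level. Circles are the 6 h libraries and open triangles the 24 h libraries, blue for cytosolic and orange for mitochondrial genes, and the 1 library with 0 reads of *Nars2* is not drawn. All cytosolic means lie above all mitochondrial means.

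Most cytosolic synthetases were lower after 24 h than after 6 h in vehicle and at the lower CBD doses, and the mitochondrial ones that passed the test were higher or lower. In vehicle, 15 of the 20 cytosolic genes passed the test, all of them lower at 24 h, against 3 of the 17 mitochondrial genes, of which 2 were higher and 1 lower. All 20 cytosolic log2 fold changes were below 0, with a median of −0.51, while the mitochondrial median was 0.01 and that of all genes −0.03. The test was the quasi-likelihood F-test of edgeR over 12790 genes, with a Benjamini-Hochberg FDR below 0.1. It called 26.7% of all genes, 14.2% lower and 12.5% higher. The labels give no batch, and anything else that differed between the 6 h and the 24 h libraries cannot be told apart from time.

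*Iars*, the cytosolic isoleucine enzyme (ENSMUSG00000037851, chromosome 13), had the largest fall. It was at 48.9, 49.1 and 63.0 CPM in the vehicle libraries of 6 h and at 24.5, 21.9 and 29.3 CPM in those of 24 h. This was a log2 fold change of −1.10 ± 0.18 (SE; edgeR FDR = 5.69e-05). *Lars*, the leucine enzyme (ENSMUSG00000024493, chromosome 18), was at 221, 253 and 254 CPM after 6 h and at 143, 158 and 125 CPM after 24 h. *Nars*, the asparagine enzyme (ENSMUSG00000024587, chromosome 18), was at 416, 455 and 395 CPM and then at 229, 302 and 229 CPM. In all 3 genes every 24 h library lay below every 6 h library, and the log2 fold changes of *Lars* and *Nars* were −0.77 and −0.74 (edgeR FDR = 0.000121 and 0.000218). *Rars*, the arginine enzyme of the multi-synthetase complex, was at 156, 184 and 229 CPM and then at 102, 139 and 121 CPM. *Tars*, the threonine enzyme, was at 178, 185 and 196 CPM and then at 108, 142 and 123 CPM. *Aars*, the alanine enzyme, was at 231, 259 and 313 CPM and then at 200, 200 and 164 CPM. These fell by 0.66, 0.59 and 0.52 on the log2 scale (edgeR FDR = 0.00143, 0.00255 and 0.00283), again with no overlap of the libraries.

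The other cytosolic genes called lower were *Gars*, *Farsb*, *Kars*, *Sars*, *Eprs*, *Cars*, *Farsa*, *Dars* and *Vars*, with log2 fold changes from −0.60 for *Cars* to −0.37 for *Vars*. *Qars*, the glutamine enzyme, was at 102 ± 5.45 CPM (SD, n = 3) after 6 h and 95.1 ± 7.17 CPM (SD, n = 3) after 24 h and did not pass (log2 fold change −0.10, edgeR FDR = 0.651). *Hars*, *Mars*, *Yars* and *Wars* did not pass either, with log2 fold changes between −0.44 and −0.23. In 10 of the 20 cytosolic genes all 24 h libraries were below all 6 h libraries, which held for 15.9% of all genes. The call rested on single libraries in several genes. *Vars* was lost in 25 of the 30 fits that left out 1 library, most of them CBD-treated libraries, which share the estimate of the spread, and under 3 other settings. *Dars* was lost in 6 of the 30, without A2, A3, A5, A8, A28 or A30, and under 3 other settings. In a fit of only the 6 vehicle libraries, *Dars*, *Eprs*, *Farsa*, *Sars* and *Vars* did not pass. Without A28 the cytosolic genes called fell to 9, without A2 to 10 and without A1 or A30 to 11, while *Iars*, *Lars*, *Nars*, *Rars*, *Tars*, *Aars*, *Gars*, *Farsb* and *Kars* passed without any 1 library.

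Among the mitochondrial enzymes in vehicle, *Vars2*, the valine enzyme (ENSMUSG00000038838, chromosome 17), rose from 16.1 ± 2.02 to 29.8 ± 1.08 CPM (SD, n = 3 each; log2 fold change 0.88, edgeR FDR = 0.0094). *Fars2*, the phenylalanine enzyme, rose from 12.1 ± 3.27 to 19.9 ± 3.78 CPM (edgeR FDR = 0.0971). *Yars2*, the tyrosine enzyme, fell from 27.1 ± 4.53 to 16.2 ± 3.21 CPM (edgeR FDR = 0.0285). *Fars2* was lost without any of 5 single libraries (A2, A3, A6, A28 and A30) and *Yars2* without A1 or A29, whereas *Vars2* passed without any 1 library. In a fit of only the 6 vehicle libraries *Fars2* did not pass either. The last bases of *Vars2* and *Fars2* are among those that overlap a gene on the opposite strand.

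The fall of the cytosolic enzymes was also present in the CBD-treated libraries. None of these libraries is in the vehicle comparison, but the same fit and estimate of the spread served both. At the 3 lower doses together, 17 of 20 cytosolic genes were lower at 24 h and 0 were higher, with all 20 below 0 and a median of −0.46. Here 51.8% of all genes were called, 26.6% lower and 25.2% higher, with 9 libraries on each side. Of the 15 cytosolic genes that fell in vehicle, 14 also fell here, and *Aars* did not pass. *Hars*, *Mars* and *Wars* passed here and not in vehicle, a difference that was not tested gene by gene.

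For groups of 9 libraries the lowest, median and highest are given. *Nars* was at 296, 384 and 434 CPM after 6 h and at 213, 240 and 277 CPM after 24 h. *Lars* was at 169, 207 and 250 CPM and then at 122, 137 and 157 CPM. *Tars* was at 142, 176 and 191 CPM and then at 101, 110 and 138 CPM. None of these 3 pairs of groups overlapped, and the log2 fold changes were −0.65, −0.63 and −0.62 (edgeR FDR = 2.37e-08, 4.22e-08 and 8.75e-08). *Rars* was at 156, 178 and 201 CPM and then at 102, 125 and 141 CPM. *Dars*, the aspartate enzyme, was at 60.8, 66.4 and 80.6 CPM and then at 31.3, 37.5 and 54.2 CPM, and *Iars* at 34.7, 43.7 and 54.9 CPM and then at 25.4, 28.1 and 34.7 CPM. The groups did not overlap in these 3 genes, although in *Iars* they almost touched, and their log2 fold changes were −0.57, −0.74 and −0.66. The share of all genes with such a separation was not counted for the lower doses.

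Of the mitochondrial enzymes at the lower doses, 9 of 17 passed, a share near the 51.8% of all genes. Of these, 5 were lower (*Ears2*, *Iars2*, *Yars2*, *Rars2* and *Mars2*) and 4 were higher, among them *Fars2*, *Vars2* and *Pars2*, with a median over the class of −0.20. *Mars2* was lost without A10, A21, A24 or A27, and *Rars2* without A7 or A21, while *Mars2* and *Pars2* were lost without a filter on low counts. *Ears2*, the mitochondrial glutamate enzyme (ENSMUSG00000030871, chromosome 7), showed the largest change, from 3.94, 8.74 and 13.5 CPM to 1.97, 3.38 and 7.10 CPM, with −1.23 ± 0.27 (SE) as log2 fold change (edgeR FDR = 0.000283). Its groups overlapped, and its level corresponds to 5 to 50 reads per library over all 30 libraries. *Vars2* and *Fars2* rose by 0.47 and 0.64 on the log2 scale (edgeR FDR = 0.00477 and 0.00457), as in vehicle.

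At 3 µM of CBD fewer genes passed. After 24 h, 5 of 20 cytosolic genes were lower than after 6 h (*Kars*, *Lars*, *Iars*, *Tars* and *Rars*) and 0 were higher. All 5 were also lower in vehicle and at the lower doses. The cytosolic median was −0.13, with 13 genes below 0 and 7 above, and 16.6% of all genes were called, 7.84% lower and 8.80% higher. *Kars*, the lysine enzyme (ENSMUSG00000031948, chromosome 8), was at 231, 209 and 203 CPM after 6 h and at 139, 148 and 129 CPM after 24 h. *Lars* was at 216, 249 and 216 CPM and then at 150, 138 and 143 CPM. *Iars* was at 52.0, 52.4 and 58.0 CPM and then at 33.6, 26.9 and 32.9 CPM, and *Tars* at 170, 183 and 166 CPM and then at 122, 92.3 and 139 CPM. The libraries did not overlap in these 4 genes, and the log2 fold changes were −0.63, −0.66, −0.80 and −0.55 (edgeR FDR = 0.00156, 0.00161, 0.00423 and 0.0084). How often libraries were apart over all genes was not counted for this comparison. *Rars* (log2 fold change −0.41) was lost without A4, A5, A6, A17 or A18. Of the mitochondrial genes, *Vars2* rose from 14.1, 17.02 and 15.9 CPM to 21.02, 33.2 and 27.2 CPM and *Ears2* fell from 15.3, 6.55 and 9.45 CPM to 4.45, 2.10 and 5.70 CPM. The libraries of the times did not overlap in either gene (log2 fold changes 0.80 and −1.37, edgeR FDR = 0.035 and 0.0475), and both calls were lost without A4 or A17, which left 4 members called.

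**Figure D2:**
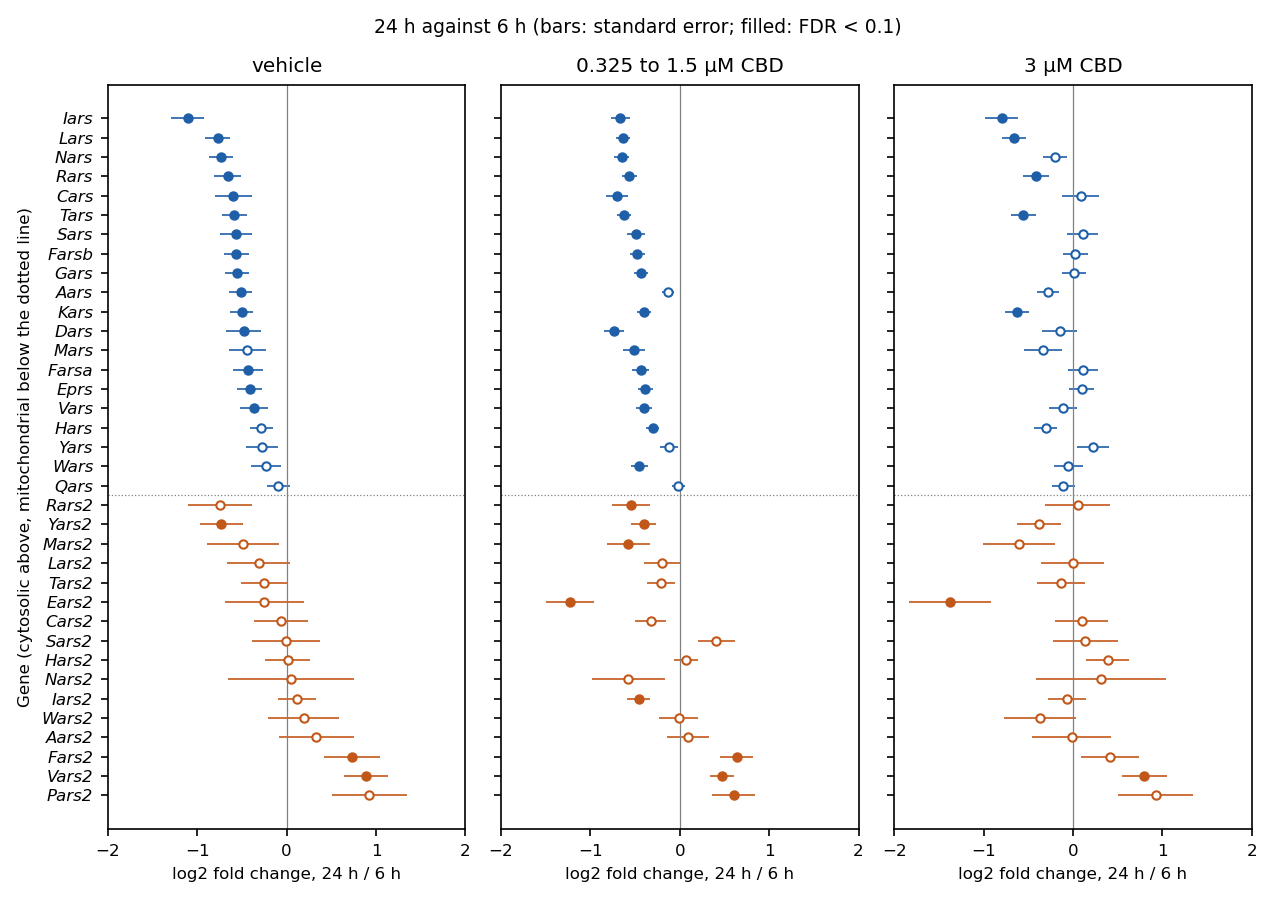
Log2 fold change of 24 h against 6 h for 36 synthetase genes (x axis) in vehicle, at the 3 lower doses and at 3 µM of CBD, with the standard error as a bar and filled points where the FDR was below 0.1. In vehicle and at the lower doses the cytosolic genes all lie left of 0, and the mitochondrial genes lie on both sides.

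Cytosolic and mitochondrial enzymes were also compared as sums, as a description without a test. The summed level of the 20 cytosolic genes in vehicle was 3935 ± 282 CPM (SD, n = 3) after 6 h and 2743 ± 316 CPM (SD, n = 3) after 24 h. The mitochondrial sums were 207 ± 9.29 and 211 ± 17.4 CPM. Among the CBD groups the cytosolic sum ran from 3432 ± 68.8 CPM (3 µM) to 3711 ± 188 CPM (0.325 µM) after 6 h and from 2630 ± 111 CPM (1.5 µM) to 3090 ± 327 CPM (3 µM) after 24 h. The mitochondrial sum stayed between group means of 199.96 and 226 CPM. The mean log2 level of the cytosolic genes exceeded that of the mitochondrial genes by 3.70 to 3.87 in the groups of 6 h and by 3.34 to 3.51 in those of 24 h. The change from 6 h to 24 h in this difference was −0.50 in vehicle, −0.39 at the lower doses and −0.19 at 3 µM. Its spread between the libraries of a group had a pooled SD of 0.116.

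For 14 amino acids, the cytosolic and the mitochondrial enzyme are separate single genes. In vehicle the change from 6 h to 24 h was lower for the cytosolic enzyme than for its mitochondrial counterpart in 11 of the 14, with a median difference of −0.50 on the log2 scale. The count was 12 of 14 at the lower doses and 11 of 14 at 3 µM, with median differences of −0.38 and −0.34. For valine, the pair diverged in vehicle, with *Vars* at −0.37, a call that few of the fits with 1 library left out kept, and *Vars2* at 0.88. For tyrosine the order was the other way round, with *Yars* at −0.28 and *Yars2* at −0.73.

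**Figure D3:**
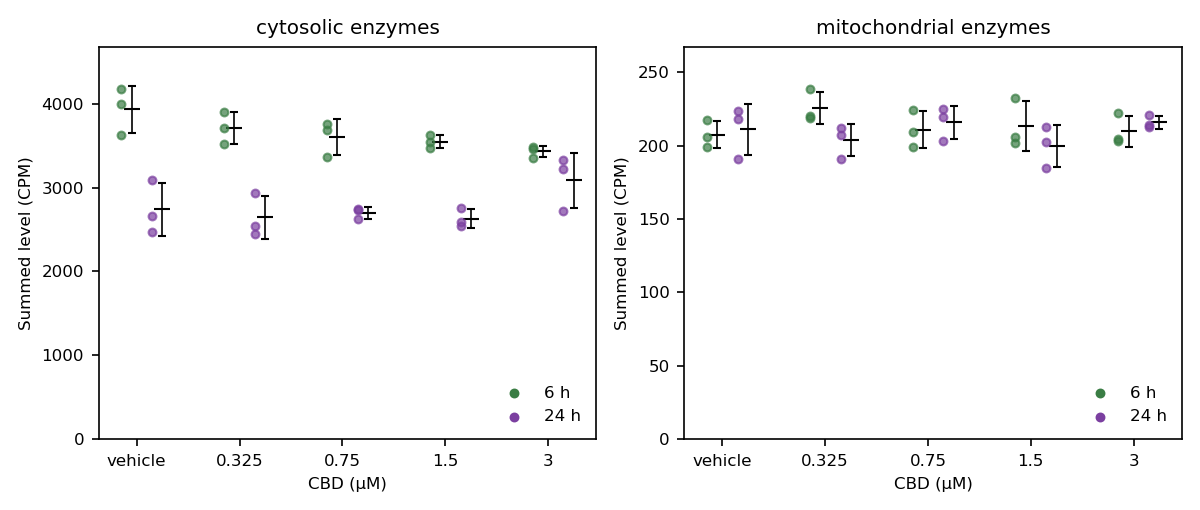
Summed level in CPM (y axis, from 0) of the 20 cytosolic and the 17 mitochondrial genes in each library, by CBD dose (x axis), green for 6 h and purple for 24 h, with the mean and SD of each group in black. The cytosolic sums of 24 h lie below those of 6 h at every dose, with the group mean of 3 µM the highest of the 24 h groups, and the mitochondrial sums of the times overlap at every dose but 0.325 µM.

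No synthetase passed the test in any comparison of a CBD dose with vehicle after 6 h. With edgeR 0 of 37 members were called at each of the 4 doses and at all doses together, and DESeq2 also called 0. The share of all genes called was low as well, at 0.2% for 0.325 µM, 0.0749% for 0.75 µM, 0.0999% for 1.5 µM, 0.05% for 3 µM and 0.749% for the 4 doses together. At an unadjusted p below 0.05, 0, 1, 0 and 4 members were found from the lowest to the highest dose and 1 over all doses, every one of them cytosolic and lower. The shares of all genes at that level were 8.80%, 7.79%, 7.91%, 7.26% and 10.3%. The cytosolic medians were −0.09, −0.12, −0.12 and −0.18 from the lowest to the highest dose, beside −0.02, −0.02, −0.01 and −0.01 for all genes. The mitochondrial medians had no common sign, at 0.23, −0.17, 0.15 and −0.02.

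The 3 members with the smallest p over the 4 doses after 6 h were *Sars*, *Gars* and *Nars*, all lower with CBD. *Sars*, the serine enzyme, was at 237, 243 and 131 CPM in vehicle and at 134 to 201 CPM in the 12 CBD-treated libraries, a log2 difference of −0.28 ± 0.13 (SE; edgeR FDR = 0.467). A3 thus lay below every CBD-treated library, and A1 and A2 above every one. *Gars*, the glycine enzyme, was at 326, 362 and 272 CPM in vehicle, and at 229, 230 and 254 CPM at 3 µM, where its log2 fold change was −0.43 (edgeR FDR = 0.457). *Nars* was at 416, 455 and 395 CPM in vehicle and at 330, 348 and 347 CPM at 3 µM, so that the libraries of both genes did not overlap at that dose. That separation was not counted over all genes.

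Library A3 stood apart from the other vehicle libraries of 6 h. *Farsa* was at 651, 642 and 363 CPM in A1, A2 and A3, *Eprs* at 392, 386 and 243 CPM and *Cars* at 122, 122 and 74.97 CPM, whereas *Iars* and *Aars* were highest in A3. A3 had 3574833 reads on genes and 17.9% of its reads outside genes, against 1839621 and 1919498 reads and 21.4% and 20.8% in A1 and A2, and the part of these differences in the levels was not tested. Without A3, *Sars* passed at 0.75 µM and at 3 µM (log2 fold changes −0.63 and −0.64, edgeR FDR = 0.0283 and 0.0267), and *Cars* and *Gars* passed at 3 µM (−0.67 and −0.54, edgeR FDR = 0.0595 and 0.0957). For the 4 doses together *Sars* and *Farsa* then passed (−0.53 and −0.46, edgeR FDR = 0.0143 and 0.043). With A3 included, none of these passed. The share of all genes called without A3 was not counted, so these calls have no rate to be set beside.

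After 24 h, 0 of the 36 members tested were called against vehicle at any dose or over all doses, by edgeR or by DESeq2. Of all genes, 0.0660%, 0.0825%, 0.0413% and 0.00825% were called from the lowest to the highest dose, and 0.107% over the 4 doses. At an unadjusted p below 0.05 there were 3, 0, 1 and 3 members and 0 over the 4 doses, beside 8.33%, 7.63%, 7.34%, 9.16% and 6.73% of all genes. The cytosolic medians were −0.06, −0.05 and −0.04 at the lower doses and 0.15 at 3 µM, where 18 of 20 genes lay above 0. Over the 4 doses the cytosolic median was 0.00 and the mitochondrial median −0.03.

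The smallest p over the 4 doses after 24 h belonged to *Hars2*, the mitochondrial histidine enzyme, which was at 17.004, 10.6 and 16.5 CPM in vehicle and 15.5 to 25.7 CPM in the CBD-treated libraries (log2 fold change 0.39, edgeR FDR = 0.75). *Ears2* was at 7.22, 6.63 and 4.38 CPM in vehicle and 1.97 to 7.10 CPM with CBD (−0.72, edgeR FDR = 0.774). *Qars* was at 99.7, 98.8 and 86.8 CPM in vehicle and 93.4 to 125 CPM with CBD (0.18, edgeR FDR = 0.832). In none of the 3 genes were the groups apart. Without A17, *Farsb* passed at 3 µM against vehicle (0.47, edgeR FDR = 0.097), and the share of all genes called in that fit was not counted.

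**Figure D4:**
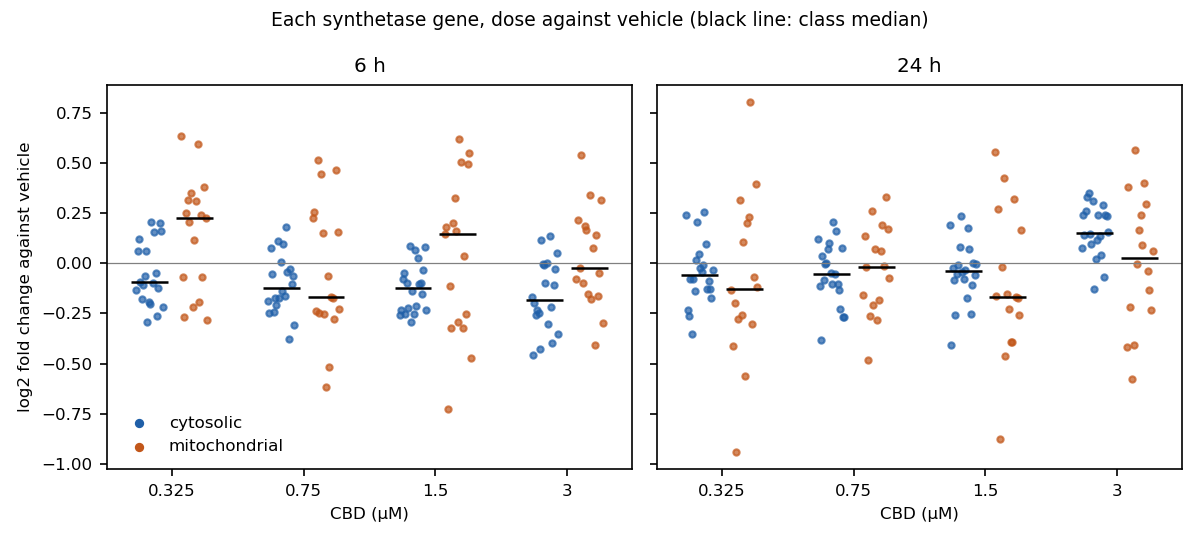
Log2 fold change against vehicle of each synthetase gene (y axis) at each CBD dose (x axis), after 6 h and after 24 h, blue for cytosolic and orange for mitochondrial genes, with the class median as a black line. The cytosolic medians lie below 0 at all doses after 6 h and, after 24 h, above 0 at 3 µM only, and no point passed the FDR threshold.

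Within the CBD-treated libraries of 24 h, 7 of the 20 cytosolic synthetases were higher at 3 µM than at the 3 lower doses and 13 did not pass. This contrast was chosen with earlier results of these data known. The 7 were *Farsa*, *Sars*, *Farsb*, *Wars*, *Cars*, *Nars* and *Eprs*, with 0 cytosolic genes lower, and 0 of 16 mitochondrial genes were called. In this contrast 10.5% of all genes were called, 6.36% higher and 4.16% lower. The cytosolic median was 0.23 with 17 of 20 genes above 0, and the mitochondrial median was 0.14, beside 0.01 for all genes.

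*Farsa*, the alpha subunit of the phenylalanine enzyme (ENSMUSG00000003808, chromosome 8), was at 567, 409 and 547 CPM in libraries A16, A17 and A18 of 3 µM, and at 259, 355 and 408 CPM (lowest, median, highest) at the lower doses. The log2 fold change was 0.56 ± 0.11 (SE; edgeR FDR = 0.00646), and it was the only one of the 7 whose groups did not overlap, although A17 lay just above the highest library of the lower doses. Such a separation in this direction held for 1.86% of all genes. *Farsb*, the beta subunit, was at 216, 158 and 204 CPM against 121, 149.7 and 164 CPM. The vehicle libraries of 24 h held 345, 464 and 412 CPM of *Farsa*, so that they overlapped both the lower doses and 3 µM, and *Farsa* did not pass at 3 µM against vehicle (0.33, edgeR FDR = 0.511).

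*Sars* was at 180, 141 and 176 CPM at 3 µM and at 101, 120 and 153 CPM at the lower doses. *Wars*, the tryptophan enzyme, was at 48.9, 44.1 and 50.9 CPM against 31.6, 36.3 and 44.7 CPM. *Cars*, the cysteine enzyme, was at 104, 59.6 and 80.2 CPM against 43.2, 53.9 and 80.4 CPM, and *Nars* at 329, 235 and 327 CPM against 213, 240 and 277 CPM. In each of these genes, and in *Farsb*, A17 lay within the range of the lower doses and A16 above it. The log2 fold changes were 0.46 for *Sars*, 0.40 for *Farsb*, 0.41 for *Wars*, 0.49 for *Cars*, 0.32 for *Nars* and 0.30 for *Eprs*, with edgeR FDRs between 0.0344 and 0.0831.

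These 7 calls rested on few libraries. Without A16 0 members passed, without A18 only 1, and without A17 there were 9, with *Vars* and *Dars* added. Single libraries of the other groups mattered as well. *Cars* and *Nars* were also lost without A19, A21, A23, A24, A25 or A26. *Eprs* was also lost without A19, A23, A24, A25, A26 or the vehicle library A30, and *Wars* without A19 or A24. Without a filter on low counts *Eprs* and *Wars* did not pass. The share of reads outside genes also moved with the contrast, at 20.8% to 21.7% in the 3 µM libraries and 18.7% to 20.4% at the lower doses, with 20.9% to 22.2% in vehicle at 24 h. With that share as a covariate 0 members passed, and since the shares of these groups do not overlap, dose and share cannot be told apart. The test for any difference among the 4 doses at 24 h called *Farsa* only (edgeR FDR = 0.0382), beside 1.93% of all genes, and 8 members at an unadjusted p below 0.05, beside 14.5% of all genes. That test called 5 members without A17, 2 without A27, and 0 without A16, A18, A25 or A26.

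After 6 h, the 3 µM dose did not stand apart from the lower doses. With edgeR and with DESeq2, 0 members were called, beside 0% of all genes, and the 3 members at an unadjusted p below 0.05 (5.19% of all genes) were *Gars* and *Cars*, both lower at 3 µM, and *Mars2*, which was higher. The test for any difference among doses called 0 members and 0% of all genes, with 0 members and 3.76% of all genes at an unadjusted p below 0.05.

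**Figure D5:**
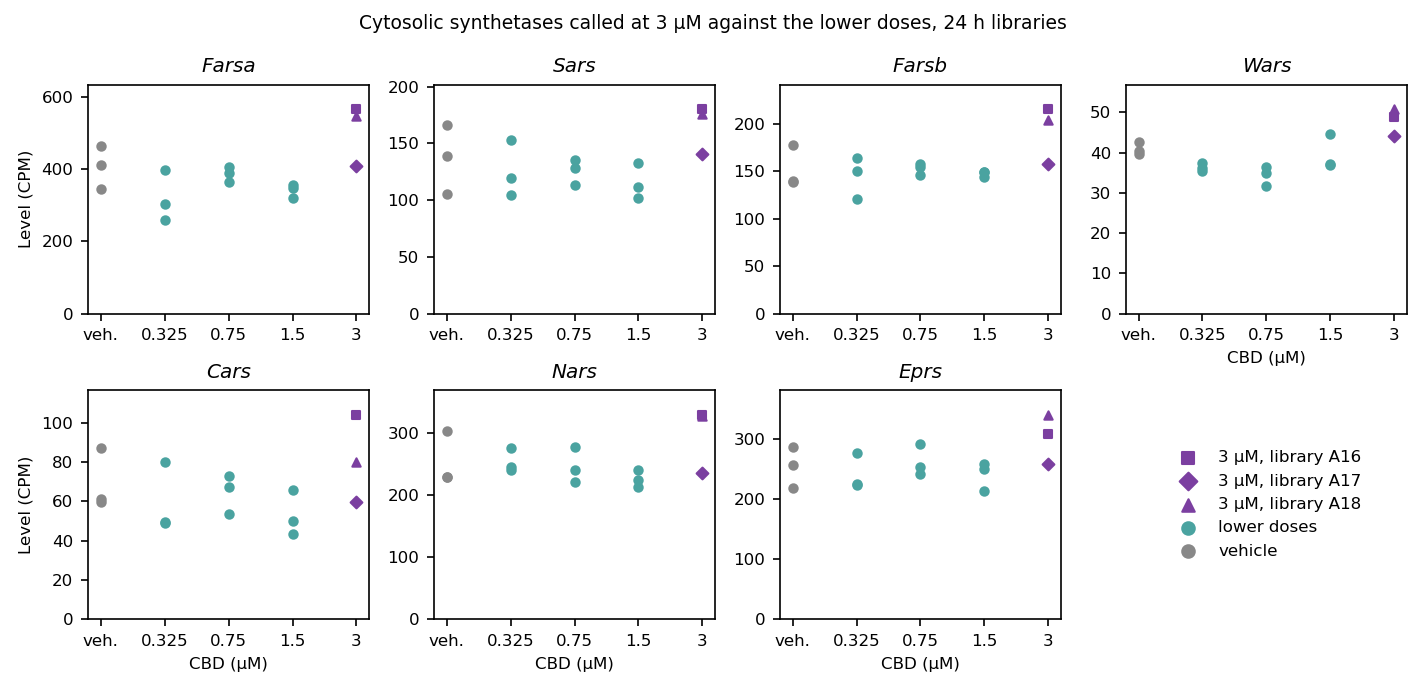
Level in CPM (y axis, from 0) of the 7 cytosolic synthetases called at 3 µM against the lower doses, in each 24 h library, by dose (x axis), grey for vehicle, teal for the lower doses and purple for 3 µM with a symbol for each library. A16 and A18 lie high in the 3 µM group, and A17 lies lower in all 7 genes.

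Whether the dose contrasts differed between the times was tested over the 30 libraries. For all doses against vehicle, edgeR called 0 of 37 members (0.235% of all genes), and DESeq2 called 0. At an unadjusted p below 0.05 there were 2 (6.52% of all genes), *Aars* (0.35) and *Ears2* (−1.01), as log2 differences of 24 h minus 6 h. For 3 µM against the lower doses, a test added after the values were seen, edgeR called 0 members (2.39% of all genes), while DESeq2 called 6. Here 9 members had an unadjusted p below 0.05 (16.6% of all genes), and all 9 were cytosolic with a larger difference at 24 h. The 3 smallest p belonged to *Cars* (0.79, edgeR FDR = 0.101), *Farsb* (0.50, edgeR FDR = 0.116) and *Sars* (0.60, edgeR FDR = 0.133). The 6 that DESeq2 called were *Cars*, *Farsb*, *Eprs*, *Nars*, *Gars* and *Sars*, with FDRs from 0.0659 to 0.0978. The share of all genes that DESeq2 called was not counted. With 1 library left out, edgeR called 7 members without A17, 5 without A3, 4 without A27, and 0 to 2 without any other library. The shares of all genes called in those fits were not counted either.

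The amino acid response, the program through which ATF4 raises genes of amino acid synthesis and uptake, was followed in a list of 20 genes, all tested. From 6 h to 24 h in vehicle 13 fell and 0 rose, with a median of −0.79, where 26.7% of all genes were called. *Asns*, the asparagine synthetase, fell by 1.15 on the log2 scale (edgeR FDR = 8.73e-07), from 133 ± 14.6 to 59.7 ± 4.27 CPM (SD, n = 3 each). *Atf4* itself fell by 0.60 (edgeR FDR = 0.00401), from 652 ± 120 to 428 ± 84.4 CPM. The arginine transporter gene *Slc7a1*, the leucine transporter gene *Slc7a5* and *Psat1* of serine synthesis fell by 0.97, 1.28 and 0.74. At the lower doses 13 fell and 2 rose (*Ddit3* and *Nupr1*), beside 51.8% of all genes called, and at 3 µM 8 fell and 1 rose (*Nupr1*), beside 16.6%.

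Against vehicle after 6 h, 3 of these 20 genes were lower over the 4 CBD doses and 17 did not pass, beside 0.749% of all genes called. All 20 lay below 0, with a median of −0.49. The 3 were *Slc7a1* (−0.50), *Nupr1* (−0.99) and *Atf4* (−0.49), with edgeR FDRs of 0.0308, 0.0437 and 0.0647. Whether the calls in this list, here and between the times, hold without single libraries such as A3 or under other settings was not examined. At each single dose edgeR called 0 of the 20, beside 0.05% to 0.2% of all genes. At an unadjusted p below 0.05 there were 7 to 11, beside 7.26% to 8.80%. After 24 h 0 passed over the 4 doses with edgeR, beside 0.107% of all genes. Only 1 had an unadjusted p below 0.05, beside 6.73% of all genes. For 3 µM against the lower doses at 24 h, *Atf5*, *Mthfd2*, *Atf4* and *Slc7a1* were higher and *Phgdh* and *Slc3a2* lower, beside 10.5% of all genes called.

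A further list held 14 genes, most of them factors that assist the synthetases, such as scaffolds of the complex and proofreading enzymes, and *Tarsl2*, itself a threonine enzyme. Of these 12 were tested, and 3 were called between the times in vehicle, 3 at the lower doses and 1 at 3 µM, shares no higher than the 26.7%, 51.8% and 16.6% of all genes. In vehicle *Eef1e1* and *Aimp1*, auxiliary proteins of the multi-synthetase complex, fell from 6 h to 24 h (−1.47 and −0.32, edgeR FDR = 0.0133 and 0.0667), and *Prorsd1* rose (0.69, edgeR FDR = 0.0883). At the lower doses *Dtd2*, a proofreading enzyme, *Eef1e1* and *Aimp1* fell, and at 3 µM *Mtfmt*, which formylates the mitochondrial initiator tRNA, fell by 1.49. For 3 µM against the lower doses at 24 h, 2 of the 12 were called, beside 10.5% of all genes. These were *Dtd2*, which was higher (0.88), and *Mtfmt*, which was lower (−1.15). Whether the calls in this list hold without single libraries or under other settings was not examined. No gene of this list was called against vehicle over the 4 doses at either time by edgeR, with 0 at an unadjusted p below 0.05.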

How the data were processed

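The study measured 3′ mRNA-Seq (QuantSeq, forward kit) in 30 libraries of a mouse hypothalamic cell line. The authors trimmed reads with Flexbar 3.5.0, mapped them with STAR 2.7.5c to GRCm39 and counted them with HTSeq 1.99.2 over Ensembl 109, and they deposited raw counts per gene for each library, with no normalization. The summary lines of each table (17.7% to 22.2% of uniquely mapped reads lay outside genes) stayed out of library sizes. Groups came from the titles. GENCODE M21 (GRCm38) gave the symbols, chromosomes and last bases, and RefSeq (GRCm38.p6) gave the promoters, both of an earlier assembly than the one the reads were mapped to.

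Counts were fitted in R 4.3.3 with edgeR 4.0.16 (filterByExpr, TMM, quasi-likelihood F-test) on the 15 libraries of a time (12012 genes at 6 h, 12118 at 24 h) or on all 30 libraries (12790 genes), with Benjamini-Hochberg adjustment over all genes and a threshold of 0.1. Standard errors were derived from the fold change and its F statistic. The mean log2 level used a prior count of 2. Alternatives were DESeq2 1.42.0, RLE size factors, other filters, the mitochondrial genome left out, only the 6 libraries compared, the share outside genes as a covariate, and each library left out. The steps were tested on simulated data. Replicate libraries differed beyond sampling noise (chi-square per gene 2.17 to 12.0 over 30 pairs), so none was counted as a duplicate.

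The members, lists and contrasts were chosen with earlier results of these data known. By the naming rule, levels in single libraries are given for up to 6 members called per comparison, ranked by p, and for the 3 smallest p where none was called over all doses or between times. Other single-library values (*Vars2*, *Ears2*, *Farsa*, *Eprs*, *Cars* and *Iars* where they bear on a library that stood apart) were chosen after the values were seen. The values of 1 member are not reported here by name; it is kept in the counts, medians and sums.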

Additional observations from a re-analysis of the deposited data

How the results depend on the processing

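No paired analysis was possible because no library number occurs in more than 1 group. No value that passed the threshold changed sign under any alternative run. In vehicle 18 members were called between the times, and 12 to 19 under the alternatives. For 3 µM against the lower doses at 24 h minus 6 h edgeR called 0 members, DESeq2 6, the fit without a low-count filter 3, a minimum of 10 counts per library 2, and single libraries left out 0 to 7. With the percentage of reads lying outside genes as covariate, 0 were called for 3 µM against the lower doses at 24 h, 0 for any difference among the doses at 24 h, and 4 between the times at 3 µM. Without a filter 3 were called for any difference among the doses at 24 h. Leaving out 1 library gave 0 to 1 members at 0.75 µM against vehicle at 6 h, 0 to 3 at 3 µM, 0 to 2 for the doses together, 0 to 1 at 3 µM at 24 h, 0 to 9 for 3 µM against the lower doses at 24 h, 0 to 5 for any difference among the doses at 24 h, and 4 to 7 between the times at 3 µM. The share of all genes called was not counted under these alternatives, and the cause was not tested.

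The difference of cytosolic and mitochondrial log2 levels was also taken from medians over the members. Its contrast between groups was then 0.011 (0.325 µM against vehicle, 6 h), −0.11 (0.325 µM against vehicle, 24 h), −0.032 (3 µM against vehicle, 24 h), 0.0100 (3 µM against the lower doses, 24 h) and −0.021 (doses against vehicle, 24 h minus 6 h). With means, the difference after 6 h was 3.73 at 0.325 µM and 3.87 in vehicle. After 24 h it was 3.39 at 0.325 µM, 3.51 at 3 µM and 3.38 in vehicle. In each of these contrasts with vehicle the sign differed between means and medians. With means and 1 library left out, the contrast was −0.11 to 0.12 at 0.325 µM, −0.17 to 0.069 at 0.75 µM, −0.086 to 0.15 at 1.5 µM, 0.012 to 0.25 at 3 µM and −0.088 to 0.15 for all doses, each against vehicle at 24 h. It was 0.034 to 0.27 for the doses at 24 h minus 6 h, again opposite in sign to the value from medians, and −0.61 to −0.37 between the times in vehicle. The mitochondrial enzymes had 373 to 961 reads per library, which limits the changes that were detectable.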
